A study of Homo sapiens with 6 samples.

Results

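The genes described are 7 that encode subunits of the GABA-A receptor: the alpha subunits GABRA2, GABRA3, GABRA4, GABRA5 and GABRA6 and the beta subunits GABRB1 and GABRB2. They were chosen by gene symbol and not by a rule on their values, but with earlier results of these data known. Every probe set (a group of short probes that reads 1 transcript) with one of these symbols in the platform annotation was taken. The whole array held 11963 genes named in this way. The 7 had 10 of the 22215 probe sets tested, with 3 for GABRA5, 2 for GABRA2 and 1 for each of the other 5 genes. RNA came from SH-SY5Y cells, an established human neuroblastoma line used as a stand-in for neurons. The cells of 3 flasks were given free bilirubin at 140 nM (Bf 140 nM), and those of 3 other flasks 0.6% of its solvent dimethyl sulfoxide and no bilirubin (DMSO 0.6%). Cells were collected at 4 h and each flask gave 1 Affymetrix oligonucleotide array. The line is a single tumour-derived line, grown with foetal bovine serum, with a flask of its own for each treatment. The bilirubin was diluted in medium that also held this serum. In such bulk RNA, fewer cells that carry a transcript and less of it per cell cannot be told apart.

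GABA-A receptors are chloride channels built of several subunits around a central pore, opened by gamma-aminobutyric acid (GABA), the main inhibitory transmitter of the mature brain. Alpha and beta subunits together form the GABA binding site, and the alpha subunit beside a gamma subunit sets the response to benzodiazepines. In immature neurons, where internal chloride is high, opening of the same channel can depolarise the cell. The subunit genes lie in clusters. By gene order in RefSeq (assembly GRCh38.p14), GABRA4 is next to GABRB1, GABRB2 is next to GABRA6, GABRA5 is next to GABRG3, and GABRA3 is next to GABRQ. Only COX7B2 separates GABRA2 from GABRA4. The deposited values name no genome build, so no coordinates are given.

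All values are normalised levels on a generalised log2 scale, which is close to log2 where a probe set is bright and flattens where it is dim, so that a dim gene has its difference understated. The 6 arrays correlated with each other between 0.971 and 0.996 over the probe sets. Their medians ranged from 7.94 to 8.00 in Bf 140 nM and from 7.85 to 8.00 in DMSO 0.6%. The beta-actin 3' minus 5' difference, which grows as RNA or labelled product becomes incomplete, was between 0.24 and 0.89 in Bf 140 nM. In DMSO 0.6% it was 0.11, 0.32 and 2.21, the last in replicate 3. DMSO 0.6% replicate 3 therefore stood apart, and results are also given without it. The difference between groups was not significant by an exact two-sided permutation test (p = 0.90, where 0.10 is the smallest p that 3 against 3 arrays allow).

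The first question was whether the receptor genes read above what an unexpressed gene reads on these arrays. A list of genes restricted to other tissues, such as those of liver, muscle, retina and sperm, served as the measure of background, with 81 probe sets for 58 genes. On each array, the limit was the 95th percentile of these probe sets, and it lay between 7.78 and 7.94 in Bf 140 nM and between 7.79 and 7.95 in DMSO 0.6%. A probe set counted as above background-like levels when it passed the limit on all 6 arrays. None of the 10 receptor probe sets did so, while 45.9% of all probe sets did. Nor did any of the 10 pass the limit on even 1 array, against 56.5% of all probe sets. The receptor values ran from 5.75 to 7.47. For 7 of the 10 probe sets the value stayed under the 10th percentile of its array on every array. Every probe set has its own affinity, so the limit is a description, and a transcript at a low level that the arrays did not resolve is not excluded by it. On the list itself, the surfactant genes SFTPB and SFTPC passed the limit on all 6 arrays.

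Among the alpha subunits, GABRA2, common in forebrain receptors, had 2 probe sets. Its probe set 207014_at stood at 6.03, 6.12 and 6.01 in Bf 140 nM replicates 1, 2 and 3, and at 5.98, 6.01 and 6.18 in DMSO 0.6% replicates 1, 2 and 3. The probe set 216039_at read 5.98, 6.12 and 6.01 in Bf 140 nM, against 5.95, 6.14 and 6.30 in DMSO 0.6%. Both had their highest value on DMSO 0.6% replicate 3 and their lowest on DMSO 0.6% replicate 1, so the Bf 140 nM values lay inside the spread of the controls. Across the 6 arrays they ranked between percentiles 1.57 and 3.79 and between percentiles 1.21 and 5.80 of their arrays.

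GABRA5, a subunit known from extrasynaptic receptors of the hippocampus, was read by 3 probe sets that did not follow each other. The probe set 206456_at was at 5.86, 5.95 and 5.91 in Bf 140 nM replicates 1, 2 and 3, against 5.88, 5.85 and 5.75 in DMSO 0.6%. The probe set 215531_s_at was at 6.24, 6.46 and 6.08 in Bf 140 nM, against 6.26, 6.22 and 6.33 in DMSO 0.6%. The probe set 217280_x_at was at 6.38, 6.31 and 6.24 in Bf 140 nM, against 6.23, 6.21 and 6.44 in DMSO 0.6%. DMSO 0.6% replicate 3 was the lowest array for the first of these and the highest for the last. Names that end in _s_at or _x_at mark probes that can also bind related transcripts, so these readings may be shared.

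GABRA3, a subunit abundant in developing brain, read 6.50, 6.72 and 6.39 in Bf 140 nM and 6.51, 6.64 and 6.59 in DMSO 0.6%. For GABRA4, a subunit of extrasynaptic receptors in thalamus and striatum, the values were 6.47, 6.81 and 6.56 in Bf 140 nM and 6.60, 6.63 and 6.65 in DMSO 0.6%. The controls of GABRA4 agreed within an SD of 0.02 (n = 3), and the Bf 140 nM arrays, with an SD of 0.18 (n = 3), fell on both sides of them. GABRA6, a subunit of cerebellar granule cells, stood at 6.07, 6.58 and 6.21 in Bf 140 nM, against 6.19, 6.11 and 6.33 in DMSO 0.6%. It had the widest range of the 10 probe sets, 0.51, and Bf 140 nM replicate 2 made up its upper end. Without that array its difference between groups turned, and was -0.07 in place of 0.08.

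The beta subunits form the principal face of the GABA site. GABRB1 had 6.34, 6.42 and 6.26 in Bf 140 nM, against 6.47, 6.35 and 6.44 in DMSO 0.6%. GABRB2, the beta subunit most common in adult brain receptors, had 7.31, 7.47 and 7.06 in Bf 140 nM, against 7.22, 7.32 and 7.35 in DMSO 0.6%. It came nearest to the limit, between 0.47 and 0.72 below it, and above 81.5% of the background list by its mean; the other 9 probe sets were at least 1.13 below it. Its highest and lowest values were both in Bf 140 nM, on replicates 2 and 3. The GABRB2 probe set, 207352_s_at, also has a name that ends in _s_at, so its reading may be shared with related transcripts.

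**Figure D1:**
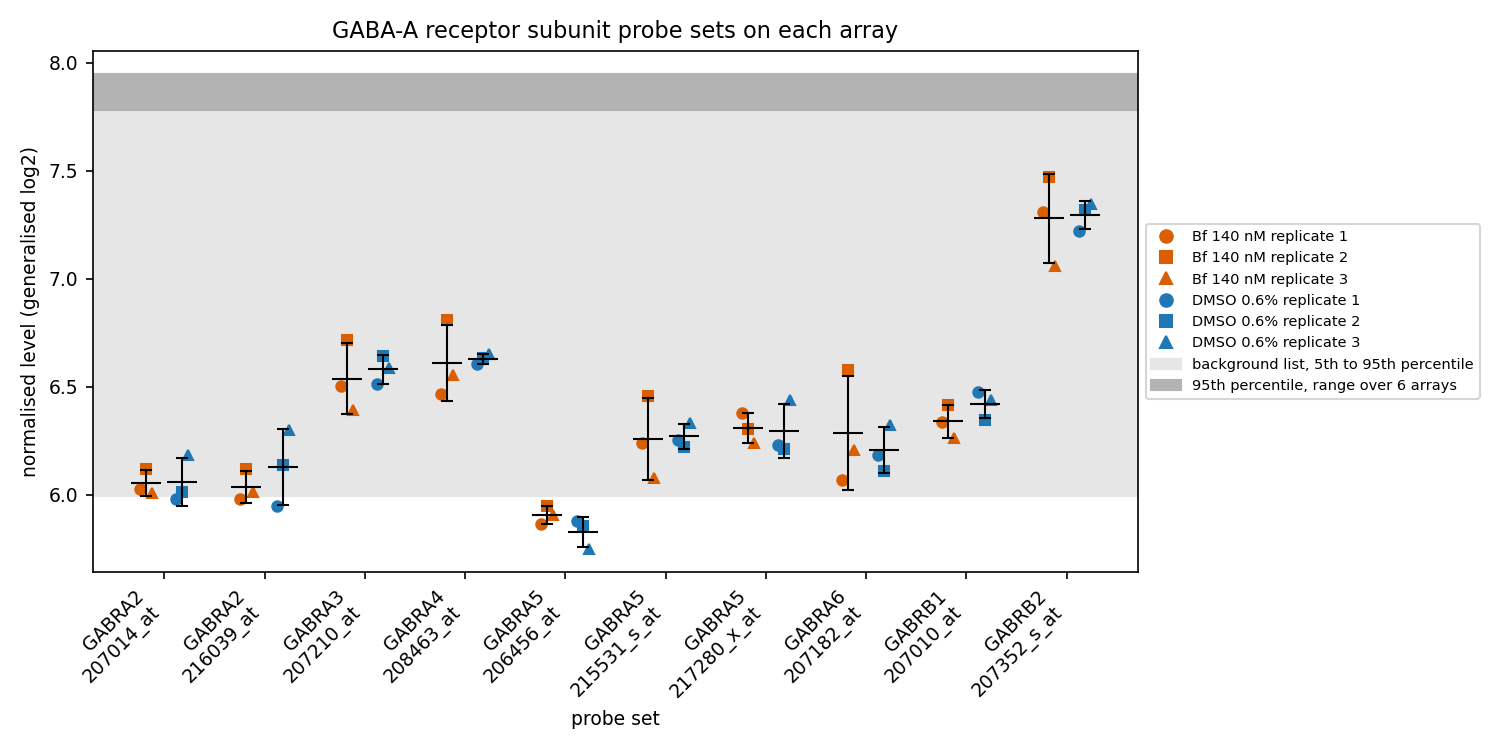
Normalised level (generalised log2) of the 10 GABA-A receptor subunit probe sets on each array, with Bf 140 nM in orange left of DMSO 0.6% in blue; shapes stand for replicate numbers and bars for the mean and SD of 3 arrays. Light grey spans most of the background list, from 5.99 to 7.95, and leaves out its lowest and highest probe sets. Dark grey is its 95th percentile on the 6 arrays (7.78 to 7.95). All points lie below the dark band, and the 2 groups overlap for every probe set.

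Differences between Bf 140 nM and DMSO 0.6% were then tested with limma over all 22215 probe sets, with Benjamini-Hochberg adjustment and a threshold of 0.10, the FDR of the study's methods. No receptor probe set passed, 0 of 10, against 0% of all probe sets tested. Before adjustment, 17 probe sets of the whole array, or 0.0765%, had a p under 0.05 by limma. With the replicate number as a block, a fit that compares same-numbered arrays, 92, or 0.414%, did so. In neither fit was a receptor probe set among them. Both shares were far below the fraction of 0.05 expected where nothing changes. The p-values thus ran large, for a reason that was not tested, and the lack of calls is weak evidence of no change. The differences, Bf 140 nM minus DMSO 0.6%, ran from -0.09 (SE 0.12) for GABRA2 probe set 216039_at to 0.08 (SE 0.09) for GABRA5 probe set 206456_at, each with an adjusted p of 1.00 by limma. GABRB1 was at -0.08 (SE 0.10), GABRA6 at 0.08 (SE 0.15), GABRA3 at -0.04 (SE 0.11), and GABRA4 and GABRB2 at -0.02 (SE 0.11 and 0.13). The lowest unadjusted p was 0.421. The Bf 140 nM and DMSO 0.6% arrays overlapped for all 10 probe sets, while over all probe sets the groups did not overlap for 2.66%, with Bf 140 nM higher for 1.68% and lower for 0.981%. Of the 10 differences, 3 were above 0, with a median of -0.01, against 63.2% above 0 and a median of 0.03 over all probe sets tested. Dim probe sets were less often above 0 than that. The share was 55.9% in the 25% of probe sets with the lowest mean and 54.3% in the background list, each with a median of 0.01. Centring each array on its own median left 2 of the 10 above 0.

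The 95% confidence intervals lay between -0.37 and 0.43 on the log2 scale. As ratios on this scale they reached down to 0.775 for GABRA2 and up to 1.34 for GABRA6, so 2-fold changes lay outside every interval. Because dim values are compressed, a true change of that size in these transcripts may not be excluded.

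**Figure D2:**
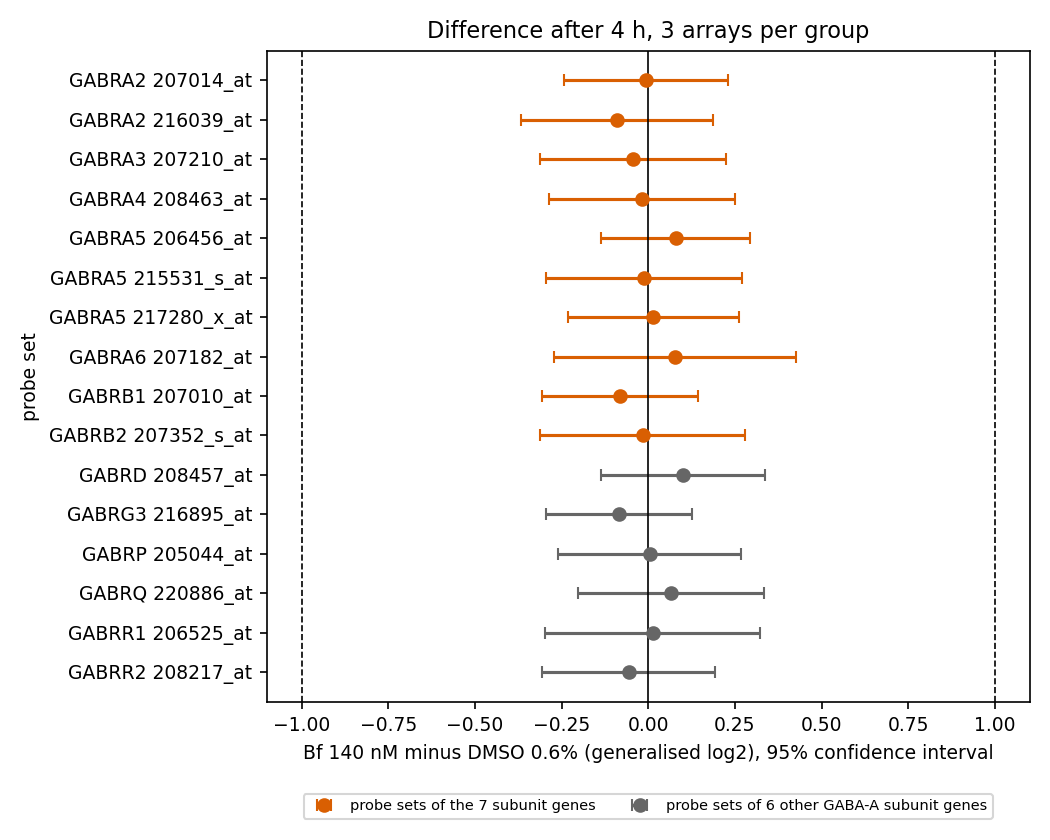
Difference between Bf 140 nM and DMSO 0.6% (generalised log2) with its 95% confidence interval from limma for the 10 probe sets of the 7 subunit genes in orange and 6 probe sets of other GABA-A subunit genes in grey, with 3 arrays per group. Every interval includes 0, and none reaches the dashed lines at 2-fold.

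Same-numbered arrays were next set against each other, since replicate numbers 1, 2 and 3 are shared by the groups. In pair 1, 4 of the 10 receptor differences were above 0 and the median was -0.01. In pair 2, 9 of 10 were above 0, with a median of 0.10, and in pair 3, 9 of 10 were below 0, with a median of -0.19. Opposite signs in pairs 2 and 3 were thus the common pattern, and no probe set kept 1 sign in all 3 pairs; over the whole array 8.96% were higher and 4.70% lower in all 3. GABRA6 differed by -0.12, 0.47 and -0.12 in pairs 1, 2 and 3. GABRB2 differed by 0.09, 0.15 and -0.29. The exceptions were GABRA2 probe set 216039_at, with -0.02 in pair 2, and GABRA5 probe set 206456_at, with 0.16 in pair 3.

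The background list moved the same way between the same arrays. Its median difference was -0.01, 0.15 and -0.09 in pairs 1, 2 and 3, with 87.7% of its probe sets above 0 in pair 2 and 79.0% below 0 in pair 3. Over all probe sets tested the medians were 0.03, -0.0043 and 0.04. In the 25% of probe sets with the lowest mean they were 0.01, 0.10 and -0.08, so the dim end of the arrays as a whole was higher in pair 2 and lower in pair 3. Bf 140 nM replicate 2 had the narrowest spread of values, with an interquartile range of 2.25, against 2.57 and 2.66 in the other Bf 140 nM arrays and 2.33 to 2.50 in DMSO 0.6%. It held the highest of the 6 values for 6 of the 10 receptor probe sets, and for 26.9% of all probe sets. Bf 140 nM replicate 3 held the lowest value for 4. Pair 3 also holds DMSO 0.6% replicate 3 with its beta-actin difference of 2.21, whose part in the receptor values was not tested; without that array 6 of the 10 differences were above 0. With each array centred on the median of the background list, a setting chosen after the data were seen, 3 of 10 were above 0 and the median was -0.02.

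**Figure D3:**
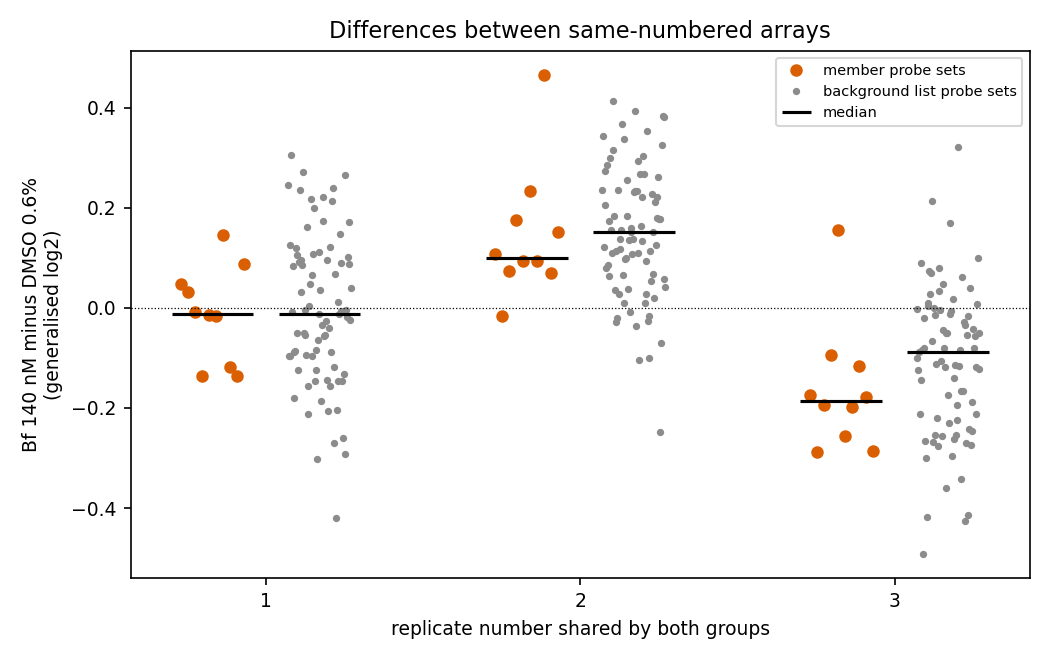
Difference between the Bf 140 nM and the DMSO 0.6% array of the same replicate number (generalised log2) for the 10 receptor probe sets in orange and the 81 background list probe sets in grey; black lines are medians. Receptor medians of -0.01, 0.10 and -0.19 lie beside background list medians of -0.01, 0.15 and -0.09 in pairs 1, 2 and 3.

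Of 9 other GABA-A subunit genes listed, 6 had a probe set with 1 gene symbol; GABRE, GABRG1 and GABRR3 were not analysed here. None of the 6 passed the background limit on any array or the test between groups (adjusted p = 1.00 for each by limma). Above 0 were 4 of 6 differences, against 63.2% over all probe sets. The median of the 6 was 0.01, within a range of -0.06 to 0.06 over the alternatives. GABRD, the delta subunit of extrasynaptic receptors, stood at 7.35, 7.52 and 7.34 in Bf 140 nM and at 7.29, 7.38 and 7.25 in DMSO 0.6%, a difference of 0.10 (SE 0.10). It was higher in all 3 pairs, as for 8.96% of all probe sets. GABRG3, a gamma subunit and the neighbour of GABRA5, had 6.65, 6.77 and 6.69 in Bf 140 nM, against 6.79, 6.77 and 6.80 in DMSO 0.6%. Its groups did not overlap, as for 0.981% of all probe sets in that direction, but its Bf 140 nM replicate 2 and DMSO 0.6% replicate 2 values differed by less than 0.01. It was lower in all 3 pairs, as for 4.70% of all probe sets. GABRQ, the theta subunit and the neighbour of GABRA3, differed by 0.07 (SE 0.11), GABRP, the pi subunit, by 0.0038 (SE 0.11), and the rho subunits GABRR1 and GABRR2 by 0.01 (SE 0.13) and -0.06 (SE 0.11).

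The genes that make, move and sense GABA, or that place the receptor in the membrane, were read next. Of 30 listed, 25 had a value, and 13 of these passed the background limit on all 6 arrays. None passed the test between groups, 20 of 25 differences were above 0, and the median was 0.07, against 63.2% and 0.03 over all probe sets. No alternative turned this median, which ran from 0.01, without DMSO 0.6% replicate 3, to 0.10. Among those that passed the limit, GABARAP, which binds the receptor's gamma subunit and belongs to the autophagy protein family, read 12.75, 12.69 and 12.83 in Bf 140 nM and 12.78, 12.66 and 12.59 in DMSO 0.6%. Its relative GABARAPL2 averaged 11.85 ± 0.05 in Bf 140 nM and 11.73 ± 0.30 in DMSO 0.6% (SD, n = 3 each), and NSF, a membrane fusion ATPase, 10.79 ± 0.19 in Bf 140 nM and 10.60 ± 0.24 in DMSO 0.6%. DBI, an acyl-CoA binding protein that also yields peptides acting on the benzodiazepine site, averaged 12.36 ± 0.16 in Bf 140 nM and 12.33 ± 0.09 in DMSO 0.6%.

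Both enzymes that break down GABA were above the limit. ABAT, the GABA transaminase, had 9.35, 9.16 and 9.39 in Bf 140 nM, against 8.94, 9.34 and 9.08 in DMSO 0.6%, a difference of 0.18 (SE 0.13) with an adjusted p of 1.00 by limma. ALDH5A1, which oxidises the product of that reaction, averaged 8.98 in Bf 140 nM and 8.87 in DMSO 0.6%. The GABA-making enzymes GAD1 and GAD2 were below the limit on all 6 arrays. GAD1 read 7.01, 7.22 and 6.93 in Bf 140 nM and 6.88, 7.08 and 6.85 in DMSO 0.6%, a difference of 0.12 (SE 0.12). It was above 0 in all 3 pairs, as for 8.96% of all probe sets. The GABA transporters SLC6A11, SLC6A12 and SLC6A13 were also below the limit.

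Among the chloride carriers that set the direction of the GABA response, the importer SLC12A2 (NKCC1) passed the limit on all 6 arrays, with means of 8.57 in Bf 140 nM and 8.50 in DMSO 0.6%. The exporter SLC12A5 (KCC2) passed it on none, with 7.13 in Bf 140 nM and 7.10 in DMSO 0.6%. GABBR1, a subunit of the metabotropic GABA-B receptor, passed it on all 6 arrays and its partner GABBR2 on none. GPHN, which encodes the scaffold gephyrin of inhibitory synapses, read 8.54, 8.72 and 8.29 in Bf 140 nM, against 8.55, 8.73 and 7.52 in DMSO 0.6%. Its difference of 0.25 (SE 0.31), the highest of the list, came from pair 3 (0.77), which holds DMSO 0.6% replicate 3, while pairs 1 and 2 differed by -0.01 and -0.02.

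**Figure D4:**
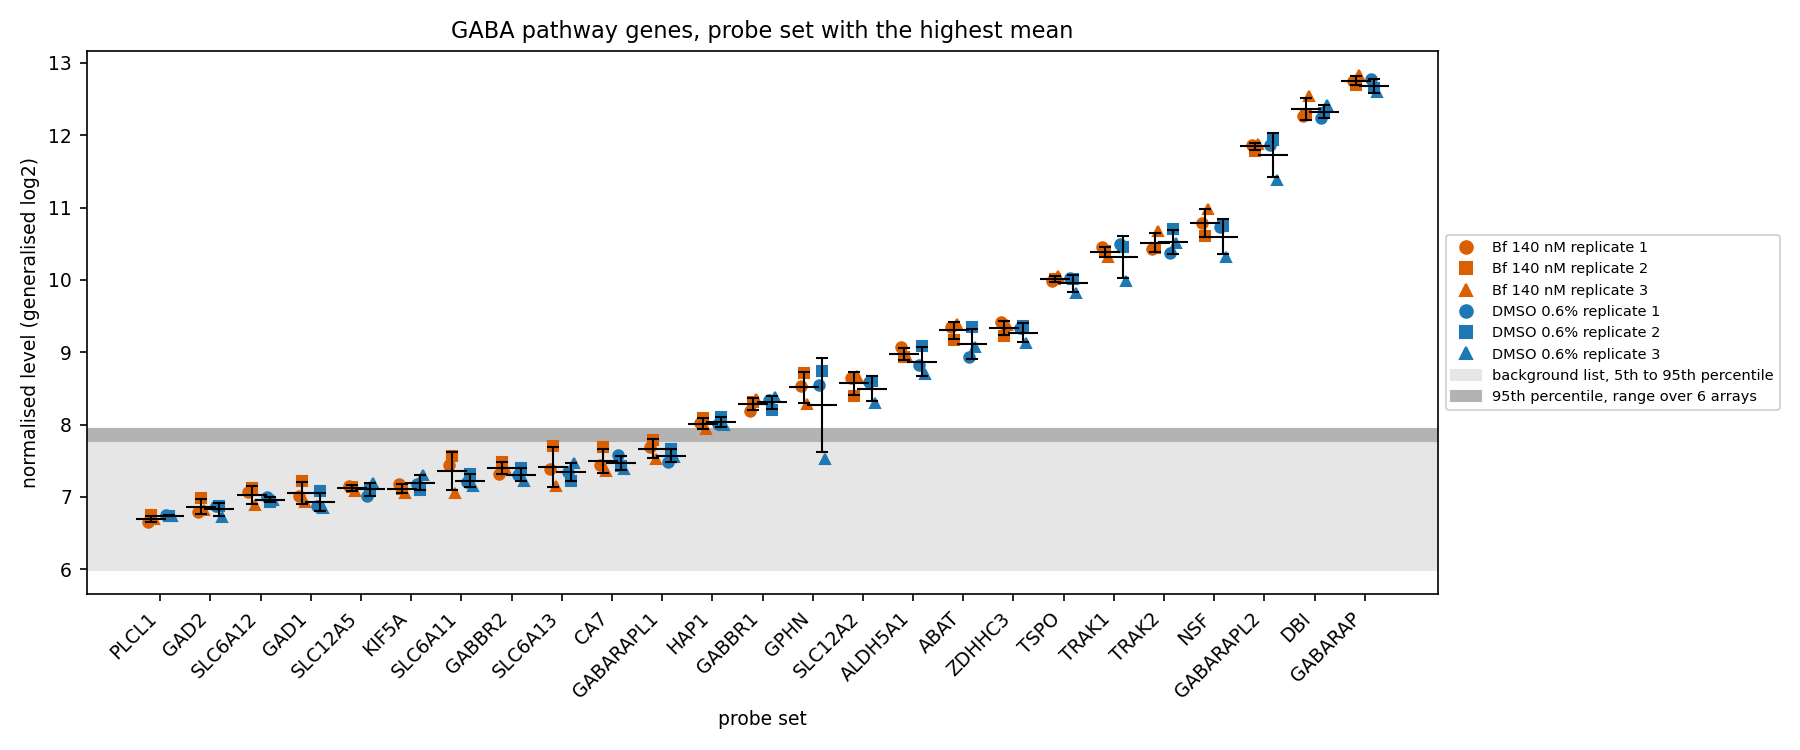
Normalised level (generalised log2) of 25 GABA pathway genes on each array, ordered by mean level, with Bf 140 nM in orange left of DMSO 0.6% in blue, marker shapes for the replicate number and bars for the mean and SD of 3 arrays. Grey bands mark the background list as in the plot of receptor levels; 13 genes lie above the limit on all 6 arrays, and the groups overlap for all 25.

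The glycine receptor is the other chloride channel of inhibitory synapses. All 4 of its genes differed by more than 0, against 63.2% of all probe sets. None of the 4 passed the test, and their median difference was 0.09, or 0.0031 without Bf 140 nM replicate 2. Its alpha subunit genes GLRA1, GLRA2 and GLRA3 did not pass the background limit on any array, and GLRB, the beta subunit that binds gephyrin, passed it on 5 of 6. GLRA1 differed by 0.10 (SE 0.12) and GLRA2 by 0.09 (SE 0.12). GLRB stood at 7.98, 8.20 and 8.07 in Bf 140 nM, against 7.94, 8.09 and 7.59 in DMSO 0.6%, where replicate 3 was the low array. Its difference was 0.21 (SE 0.15, adjusted p = 1.00 by limma).

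The labelled cell type was checked on markers of noradrenergic neuroblasts. Of 11 measured, 9 passed the background limit on all 6 arrays, among them the transcription factor GATA3, the growth cone protein STMN2 and the noradrenaline-making enzyme DBH, whose means were 13.25, 13.14 and 12.87 in Bf 140 nM and 13.20, 13.16 and 12.72 in DMSO 0.6%. TH, the enzyme that starts catecholamine synthesis, did not, with 6.58 in Bf 140 nM and 6.56 in DMSO 0.6%. HAND2 passed on 3 arrays. The neuronal RNA-binding protein gene ELAVL4 differed by 0.16 (SE 0.14) and the granin CHGB by 0.17 (SE 0.26). The transcription factor genes ISL1 and PHOX2A had differences of -0.12 (SE 0.27) and -0.05 (SE 0.17). That of ISL1 was below 0 in all 3 pairs, as for 4.70% of all probe sets. That of GATA3 was above 0 in all 3, as for 8.96%. Of the 11 neuroblast markers measured, 8 differed by more than 0 and 3 by less, against 63.2% above 0 over all probe sets. None of the 11 passed the test, and their median difference was 0.05, with a range of 0.02 to 0.12 over the alternatives. Of 10 mesenchymal or Schwann-like markers, 6 passed the background limit on all 6 arrays. Of their differences, 3 were above 0 and 7 below, against 63.2% above 0 over all probe sets. The median difference of the list was -0.02. That median was -0.09 without Bf 140 nM replicate 2 and -0.08 without DMSO 0.6% replicate 3, and it ran from -0.09 to -0.01 over the alternatives. The highest of them by mean were TWIST1, COL3A1 and FN1, at 12.38, 10.30 and 10.14 in Bf 140 nM and 12.39, 10.22 and 10.09 in DMSO 0.6%. COL1A1 differed by -0.26 (SE 0.13), LUM by -0.21 (SE 0.14) and SOX10 by -0.10 (SE 0.10), each with an adjusted p of 1.00 by limma, and their part in the receptor values was not tested. The Schwann cell marker S100B did not pass the limit on any array. Its difference was -0.07 (SE 0.09), below 0 in all 3 pairs. Its groups did not overlap, with Bf 140 nM lower, as for 0.981% of all probe sets.

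Since no receptor probe set was above background-like levels, likeness of pattern was measured for the one with the widest range, GABRA6. Among 9133 probe sets above the limit, those whose 6 values followed it most closely belonged to TBC1D10B (Pearson r = 0.986), HMX1 (0.986), BTNL3 (0.964), ZNF580 (0.959) and IPO13 (0.952). In each of them, as in GABRA6, Bf 140 nM replicate 2 was the highest array. These are the highest of many correlations over 6 arrays of 1 cell line and are given as a description.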

How the data were processed

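The authors computed cell intensities with Affymetrix GCOS and normalised them with justvsn (vsn library) in R version 2.5.0; the sources used here do not give how probes were combined. The deposited values are on a generalised log2 scale: the highest, 15.2, exceeds the natural logarithm of the 16-bit limit (11.1) but not its log2 (16). Arrays carry no depth, so their number limits precision.

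Of 22277 probe sets, 62 controls were left out. The platform annotation, updated through Entrez identifiers, gave 1 symbol for 19064 probe sets, several for 1043 and none for 2108; only the first were named. Replicates were separate flasks. Groups were compared with limma version 3.58.1 (R version 4.3.3), unpaired and two-sided, in place of the SAM module named in the methods. The steps were also run on simulated data. Those values were independent, without shifts shared by an array, so they do not show how the test performs on these arrays. The Present calls used by the authors were not used here. Deviations from the group mean of arrays with the same number correlated at 0.60, 0.23 and 0.57, each above the minimum of 0.1, so the numbers were taken to pair the arrays, and a fit blocked on that number was an alternative, with others on normalisation, filtering, RNA quality, the background limit and single arrays.

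Within lists, each gene stood as the probe set that had the highest mean. Text names all receptor probe sets, the other subunits and, per list, up to 3 genes by lowest p and 3 by highest mean; ALDH5A1, GAD2, the SLC6A and SLC12A genes, GABBR1, GABBR2, GPHN, GLRA3, TH, HAND2, ISL1, PHOX2A, S100B, SFTPB and SFTPC were added for their roles or after their values were seen. The members and lists were chosen with earlier results of these data known.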

Additional observations from a re-analysis of the deposited data

How the results depend on the processing

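The count of probe sets past the threshold was 0 under all 12 alternatives run, among them the replicate block, which gave 92 probe sets at an unadjusted p under 0.05 and changed no call. The count of receptor probe sets above the background limit was also 0 under each alternative limit, with quantile normalization and without each array. Of 140 receptor differences recomputed over 14 settings, 0 crossed the threshold and 24 changed sign; the filter on mean level removed all 10 receptor probe sets, so it gave no value for them. With beta-actin 3' minus 5' values added as a term, GABRA2 (207014_at) was at 0.0219, and with each array centred on its median GABRA5 (217280_x_at) was at -0.0186. Leaving out an array, or both arrays of replicate number 2 or 3 (chosen after the data were seen), gave ranges of -0.0631 to 0.0773 and -0.181 to 0.0081 for the GABRA2 probe sets 207014_at and 216039_at, -0.133 to 0.0324 for GABRA3, -0.118 to 0.0527 for GABRA4, -0.136 to 0.109 and -0.0272 to 0.12 for the GABRA5 probe sets 215531_s_at and 217280_x_at, -0.118 to 0.186 for GABRA6 and -0.111 to 0.119 for GABRB2. GABRA5 probe set 206456_at (0.04 to 0.10) and GABRB1 (-0.16 to -0.03) kept their sign in these settings. Without Bf 140 nM replicate 3, 8 of 10 receptor differences were above 0, and without Bf 140 nM replicate 2, 2 were. The cause was not tested.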
